A study of Mus musculus with 12 samples.

Results

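The 9 genes described here encode factors of nonsense-mediated decay (NMD): Upf1, Upf2, Upf3a, Upf3b, Smg1, Smg5, Smg6, Smg8 and Smg9. They were chosen by gene name from the 37748 genes of the deposited count table, and all 9 were among the 16679 genes that passed a filter on low counts and were tested. NMD is the pathway that removes mRNAs whose translation ends too early, together with a number of normal transcripts. In it the helicase UPF1 is held at a stalled terminating ribosome, UPF2 links it to UPF3 proteins on the exon junction complex, the kinase SMG1 phosphorylates UPF1 under the control of SMG8 and SMG9, and phosphorylated UPF1 recruits SMG6, an endonuclease, and SMG5, an adaptor that leads to deadenylation and decapping. DUX4 is the transcription factor whose expression in muscle causes facioscapulohumeral muscular dystrophy (FSHD). The study cites earlier work in which DUX4 inhibited NMD. In its own mice with induced DUX4 it reports more skipped exon and retained intron events, and proposes a loss of RNA quality control. The comparisons below give the transcript levels of the factors, not the activity of the pathway or the amount of any protein.

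Gastrocnemius muscles of 12 mice in 4 groups of 3 were sequenced as poly(A) RNA, 1 library per mouse. Control mice were ACTA1-MCM/+, carrying a tamoxifen-inducible Cre (MerCreMer) driven by the skeletal muscle actin promoter, and are labelled as given no tamoxifen (TMX), although the study also describes TMX-injected ACTA1-MCM/+ controls. FLExD/+ mice, labelled FLExDUX4/+, had the conditional DUX4-fl transgene without Cre and received no TMX either. Mice of the moderate model (FLExDUX4/+;MCM/+) carried both transgenes and were injected once with TMX at 5 mg/kg, and mice of the severe model, of the same genotype, received 2 injections at 10 mg/kg on consecutive days. All 12 mice were 13 weeks old, and the muscles of the model mice were collected 9 days after TMX. Recombination is mosaic in these muscles, so a library holds RNA of fibers with and without DUX4-fl. If the controls had no TMX, as labelled, the effect of TMX and that of the recombined transgene cannot be told apart, and as both models are compared with the same 3 controls, their changes share those libraries.

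The genes lie on 6 chromosomes of GRCm38 (mm10), with coordinates from GENCODE M21. Upf1 (ENSMUSG00000058301) is on chromosome 8 from 70331525 to 70353278 on the minus strand, and 68 of its 4618 exonic bases lie in exons of Cers1 and 63 in exons of Gdf1, both on the opposite strand. Upf2 (ENSMUSG00000043241) is on chromosome 2 from 5951469 to 6056703 on the plus strand, with no exon shared with another gene. Because the library preparation as described does not mark strand, those few bases of Upf1 could not be assigned. Counts with a fraction, left where RSEM divides a read between genes, occurred in 6 of the 9 genes, and the counts of Upf2, Upf3a and Smg8 were whole in every library.

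Upf1 and Upf2 were the members called in opposite directions in both models, and for that reason the 250 bases before their RefSeq start sites (GRCm38.p6) are shown, 5′ to 3′ on the strand of the gene, with matches to the GC box (GGGCGG on either strand) in capitals. The window of Upf1 is chr8:70353280-70353529 on the minus strand and that of Upf2 is chr2:5951219-5951468 on the plus strand.
Upf1: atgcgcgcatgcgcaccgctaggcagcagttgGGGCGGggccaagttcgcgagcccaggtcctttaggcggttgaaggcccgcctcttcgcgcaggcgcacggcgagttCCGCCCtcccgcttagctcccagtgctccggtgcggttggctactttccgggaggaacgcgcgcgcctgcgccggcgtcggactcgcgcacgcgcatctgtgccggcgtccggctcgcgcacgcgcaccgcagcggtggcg
Upf2: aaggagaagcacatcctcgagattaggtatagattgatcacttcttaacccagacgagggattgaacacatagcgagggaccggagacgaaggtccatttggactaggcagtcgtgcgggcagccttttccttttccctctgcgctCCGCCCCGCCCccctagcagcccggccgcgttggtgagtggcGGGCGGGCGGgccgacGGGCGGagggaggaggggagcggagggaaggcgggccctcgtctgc
The Upf1 window held 2 matches and the Upf2 window 5, of which neighbouring ones overlap each other, and 7 of the 9 members had at least 1, against 32.7% of 32851 promoter windows of the same length. Neither window held, on either strand, CCAAT (a match in 33.8% of all windows), TATAAA (in 12.4%), CCGGAAG (in 6.91%) or TAATCA (in 7.21%). The G and C content was 72.8% for Upf1 and 64% for Upf2, with 41 and 22 CpG sites, where the median window had 52.4% and 6 CpG sites.

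Several facts of the whole series bear on every value. The libraries held between 23796902 and 29136403 counts, and the member with the fewest, Smg9, had between 114 and 306 counts per library, which limits the precision of its values more than that of Smg1, with between 1775 and 5804. Composition differed between groups: TMM factors, by which edgeR corrects library sizes, were 0.706 to 0.724 in controls, 0.708 to 0.760 in FLExD/+, 1.06 to 1.13 in moderate and 1.69 to 1.87 in severe mice. Levels below are CPM, counts scaled to the same library total with TMM-scaled library sizes, so that changes are relative to the typical gene: over all tested genes the median log2 fold change was 0.04 in moderate and 0.08 in severe mice, but 0.65 and 1.39 with library size alone. The cell mixture moved with the groups too. The summed level of the 6 myofiber markers was 132799 to 182134 CPM in controls, 57353 to 70314 CPM in moderate and 8293 to 15722 CPM in severe mice, that of the 6 macrophage markers 48.7 to 61.7, 253 to 339 and 593 to 677 CPM, and that of the 5 markers of myogenic precursors and regenerating fibers 19.1 to 24.7, 326 to 581 and 1221 to 1728 CPM. All 6 myofiber markers were called lower and all 6 macrophage and 5 myogenic markers higher in both models. No marker of these 3 lists was at 0 in any library. Of 4 markers of cycling cells, all were called higher in both models, and 2 were at 0 in a control library. Of 5 fibroblast markers, 3 were called higher in each model and 1 lower in severe mice. Of 4 endothelial markers, 2 were called lower in moderate and 4 in severe mice. All tested genes gave 24.4% higher and 17% lower in moderate, and 32.9% and 27.9% in severe mice. The part of this shift in the changes of the NMD factors was not tested. In whole muscle, fewer cells of a type and less RNA per cell cannot be told apart.

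Levels of different genes can be compared only per length, for which the deposited TPM (transcript abundance per length, scaled to the same total in each library) were used. In control muscle Smg5 was the most abundant factor at 11.6 ± 0.843 TPM (SD, n = 3), followed by Smg1 at 6.78 ± 0.282, Upf2 at 5.56 ± 0.637, Upf3a at 5.52 ± 0.417, Smg9 at 4.70 ± 0.586, Upf1 at 4.42 ± 0.352, Upf3b at 3.76 ± 0.159, Smg6 at 3.72 ± 0.220 and Smg8 at 3.11 ± 0.263 TPM. The ranges over mice of Upf2 and Upf3a overlapped, as did those of Smg9 and Upf1, and of Upf3b and Smg6, and the order within these pairs differed between mice. Those of Upf3a and Smg9 overlapped too, but Upf3a was the higher of the pair within each control mouse. In FLExD/+ mice Smg5 and Smg1 led as well, with 11.6 ± 0.810 and 6.77 ± 0.883 TPM.

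The order changed in the models. Upf1 ranked between 5 and 6 among the 9 factors in control mice, at 3 in all moderate mice and between 2 and 3 in severe mice. Upf2 went the other way, from a rank of 3 to 4 in controls to 7 to 9 in moderate and 7 in all severe mice. In the severe model the leading factors were Smg1 at 20.2 ± 3.53, Smg5 at 19.5 ± 1.77 and Upf1 at 18.8 ± 2.75 TPM (SD, n = 3), whose ranges overlapped, whereas Upf2 stood at 7.52 ± 0.800 TPM, with a range that overlapped those of Smg8 at 6.82 ± 0.297 and Smg6 at 8.13 ± 1.08 TPM. TPM of most genes were higher in this group than in controls, with a median difference of 0.79 over all genes on the log2(TPM + 1) scale, on which ranks within a mouse do not depend.

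**Figure D1:**
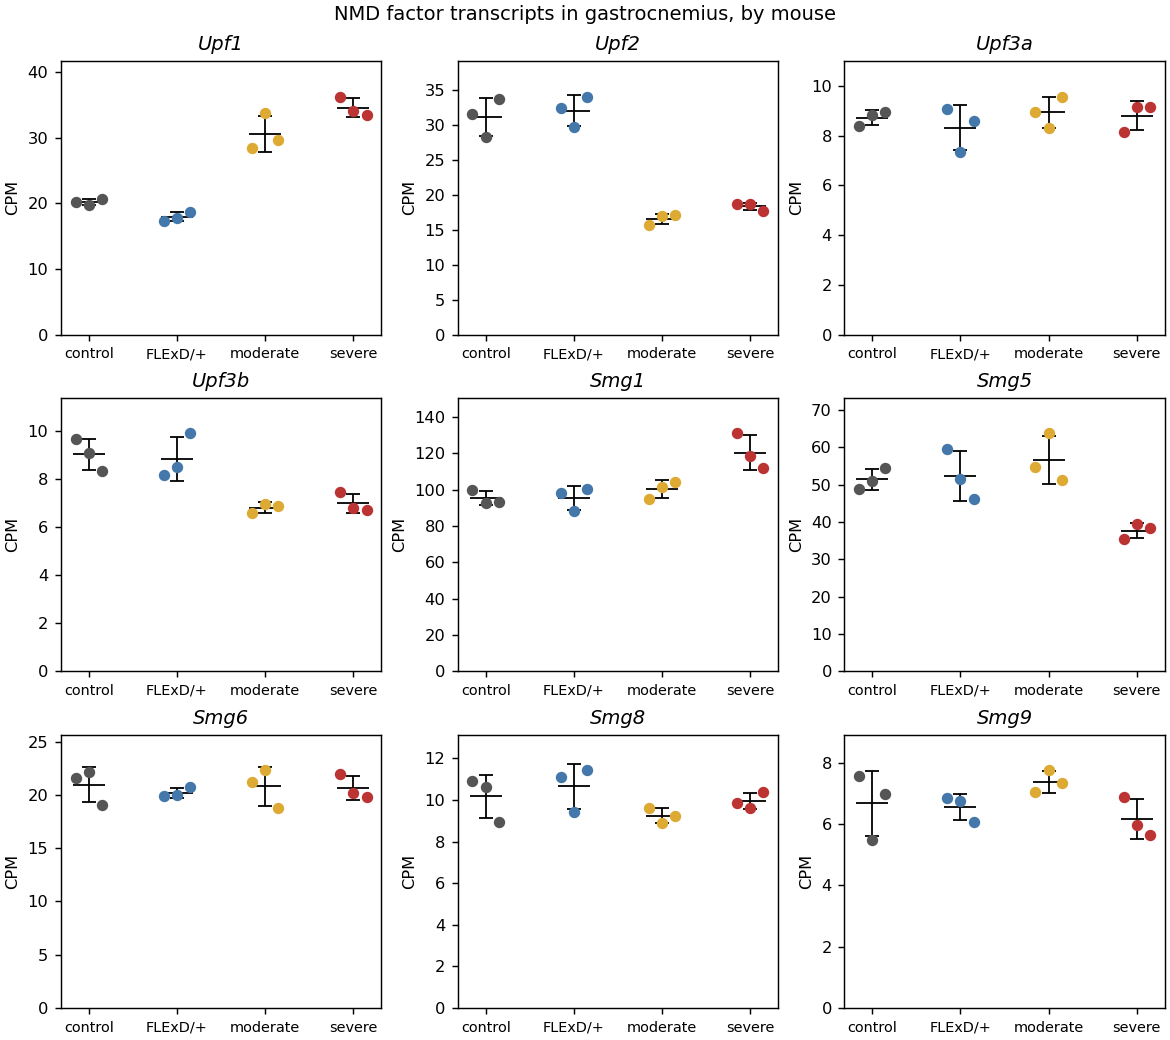
Level of each NMD factor in CPM on TMM-scaled library sizes (y axis, from 0) for each of the 12 mice (points) by group (x axis), with mean and SD as bars. Upf1 points of both models lie above, and Upf2 points below, all control and FLExD/+ points, while Smg5 on this scaling lies lowest in severe mice.

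Without induction the factors showed no called difference. Between FLExD/+ and control mice, edgeR's quasi-likelihood test called 0 of the 9 factors, 0 had an unadjusted p under 0.05, and DESeq2 and limma also called 0, where 0% of all tested genes were called higher and 0.006% lower by edgeR. Log2 fold changes ranged from -0.17 for Upf1 to 0.07 for Smg8. Upf1 was at 17.3, 17.8 and 18.7 CPM in FLExD/+ against 19.8, 20.2 and 20.7 CPM in control mice (log2 fold change -0.17, standard error 0.08, unadjusted p = 0.0616 by edgeR's quasi-likelihood test). These ranges did not overlap. The share of all tested genes without overlap is not given for this comparison, so the separation is not read as a result.

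Against controls, 1 factor rose and 1 fell in each model with TMM scaling. Upf1 was called higher in moderate mice, where 24.4% of all tested genes were, and in severe mice, where 32.9% were. Upf2 was called lower in moderate mice, where 17% of tested genes were, and in severe mice, where 27.9% were. A call required a Benjamini-Hochberg adjusted p below 0.05 over all tested genes and a log2 fold change of 0.5 or more in size. The share of factors called was below that of all genes in both directions, and their median log2 fold change, 0.04 in moderate and -0.03 in severe mice, was near the 0.04 and 0.08 of all genes. The groups did not overlap for 3 of 9 factors in moderate and 5 of 9 in severe mice, against 61% and 75% of tested genes.

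Upf1, the helicase on which the other factors act, was higher in every mouse of both models than in any control. It was at 19.8, 20.2 and 20.7 CPM in controls, 28.5, 29.7 and 33.7 CPM in moderate and 33.5, 34.1 and 36.3 CPM in severe mice. The rise was 1.52-fold in moderate mice (log2 fold change 0.60, standard error 0.08, edgeR adjusted p = 2.6e-05) and 1.71-fold in severe mice (0.78, standard error 0.08, adjusted p = 8.0e-07). Between the models the ranges of Upf1 overlapped, and the difference of 0.18 had an adjusted p of 0.0742 with edgeR. The call held under every scaling and with each mouse left out. With library size alone the log2 fold change was 1.21 and 2.08, but the library size and TPM scalings raise most genes and could hardly remove a rise. The ratio of counts to TPM, which reflects the transcript length that RSEM assigned, was 1.78 to 1.89 times that of the median gene for Upf1 in controls and 1.60 to 1.75 times in severe mice.

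Upf2, the bridge between UPF1 and the UPF3 proteins, moved the opposite way. Its level was 28.2, 31.5 and 33.7 CPM in controls, 15.6, 16.9 and 17.1 CPM in moderate and 17.7, 18.6 and 18.7 CPM in severe mice, with no overlap between controls and either model. This was 1.88-fold lower in moderate mice (log2 fold change -0.91, standard error 0.09, edgeR adjusted p = 9.0e-07) and 1.70-fold lower in severe mice (-0.76, standard error 0.09, adjusted p = 1.7e-06). The severe mice were slightly above the moderate mice without overlap, a difference of 0.15 with an adjusted p of 0.160 in edgeR. In the moderate model Upf2 was lower than control under every scaling, with -0.31 by library size alone, but in severe mice its sign depended on the scaling, with 0.54 by library size alone and 0.38 on log2(TPM + 1).

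Upf3b and Upf3a encode paralogous proteins that bind UPF2 and the exon junction complex, UPF3B being regarded as the more active in NMD. Upf3b (chromosome X, 37091678 to 37110322, minus strand) was at 8.34, 9.06 and 9.64 CPM in controls, 6.56, 6.89 and 6.97 CPM in moderate and 6.72, 6.79 and 7.44 CPM in severe mice. Every model mouse was thus below every control, but the log2 fold changes of -0.40 (standard error 0.11, edgeR adjusted p = 0.00589) and -0.37 (standard error 0.11, adjusted p = 0.00669) did not reach the fold threshold, and both were positive with library size alone, at 0.20 and 0.94. Upf3a (chromosome 8, 13785615 to 13799193, plus strand) ranged from 8.39 to 8.96 CPM in controls, 8.31 to 9.56 in moderate and 8.14 to 9.15 CPM in severe mice, with log2 fold changes of 0.04 and 0.01 (standard error 0.11 each) on TMM scaling. With library size alone the changes of Upf3a were 0.64 and 1.31. The count of Upf3a divided by that of Upf3b, which needs no scaling between libraries, was 0.871 to 1.07 in controls, 0.867 to 1.11 in FLExD/+, 1.195 to 1.39 in moderate and 1.09 to 1.36 in severe mice, the highest FLExD/+ mouse being above the lowest severe mouse.

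In the kinase complex, Smg1 was above controls in severe mice on TMM scaling, and Smg8 and Smg9 passed no test on that scaling, though both were higher in severe mice with library size alone (1.28 and 1.198). Smg1 (chromosome 7, 118131308 to 118243670, minus strand) was at 92.7, 93.1 and 99.9 CPM in controls and 94.8, 101 and 104 CPM in moderate mice, with overlap. In the severe model it was at 112, 118 and 131 CPM, above all other mice of the study, with a log2 fold change of 0.34 (standard error 0.09, edgeR adjusted p = 0.00336) against controls and 0.26 (standard error 0.09, adjusted p = 0.0219) against the moderate model, both under the fold threshold. Smg8 (chromosome 11, 87077732 to 87086774, minus strand) lay between 8.96 and 10.9 CPM in controls, 8.90 and 9.59 in moderate and 9.60 and 10.4 CPM in severe mice. Smg9 (chromosome 7, 24399619 to 24422778, plus strand) lay between 5.49 and 7.56 CPM in controls, 7.04 and 7.76 in moderate and 5.65 and 6.90 CPM in severe mice. On TMM scaling the lowest adjusted p of these 2 genes in any comparison was 0.108 with edgeR, for Smg9 between the models, whose ranges did not overlap. The ranges of Smg8 and Smg9 overlapped with controls in both models.

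Among the factors that act on phosphorylated UPF1, Smg5 differed between the models on TMM scaling, and Smg6 passed no test on that scaling. Smg5 (chromosome 3, 88336260 to 88362338, plus strand) was at 48.9, 50.9 and 54.4 CPM in controls, 51.1, 54.7 and 63.7 CPM in moderate and 35.4, 38.3 and 39.3 CPM in severe mice. It was therefore lowest in all 3 severe mice. Against the moderate model the log2 fold change was -0.58 (standard error 0.10, edgeR adjusted p = 0.000398), called lower where 18.8% of tested genes were, and without moderate mouse 1308 it was -0.50, just short of the fold threshold (adjusted p = 0.00244). Against controls it was -0.45 (standard error 0.11, adjusted p = 0.00160) in severe mice, under the fold threshold, and 0.14 (standard error 0.11, adjusted p = 0.293) in moderate mice. With library size alone the severe mice were 0.85 above controls and 0.11 above the moderate mice. Smg6 (chromosome 11, 74925823 to 75164448, plus strand), whose exons share 126 of 8453 bases with Srr on the opposite strand and 117 with the predicted gene Gm12333, was at 19.1 to 22.2 CPM in controls, 18.8 to 22.3 CPM in moderate and 19.8 to 22.0 CPM in severe mice, with log2 fold changes of -0.01 and -0.02 (standard error 0.09 each) on TMM scaling and 1.29 in severe mice with library size alone.

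Of the 9 factors, Smg5 was the only one called between the models by edgeR. It was called lower, and 0 were called higher, where 17.6% of tested genes were. By edgeR 2 factors, Upf1 and Smg1, were higher at an unadjusted p under 0.05, and DESeq2 also called 0 higher. Limma on log2(TPM + 1) called 7 higher, on a scale where the median gene was at 0.49. The share of all tested genes called on that scale is not given here. The ranges of the models did not overlap for 5 of 9 factors, against 61.3% of tested genes.

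**Figure D2:**
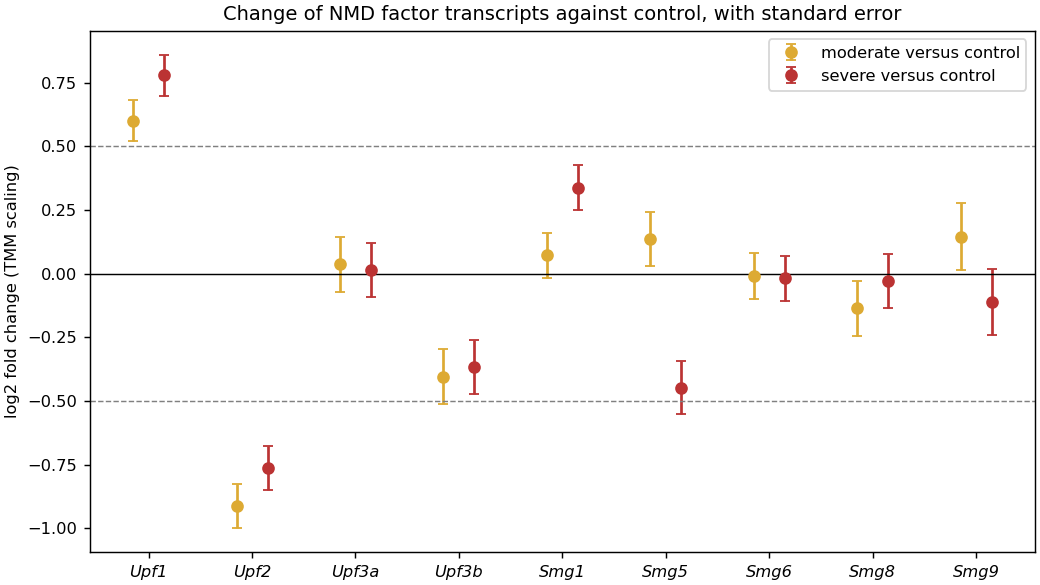
Log2 fold change against control (y axis, TMM scaling) of each NMD factor (x axis) in the moderate (yellow) and severe (red) model, with standard errors from edgeR as bars and dashed lines at the fold threshold of 0.5. Upf1, at 0.60 and 0.78, and Upf2, at -0.91 and -0.76, are the factors past the threshold.

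Because the scaling between libraries sets the sign of several changes, each factor was also set against the mean of all 9 in the same mouse (log2 CPM minus the mean log2 CPM of the factors), a quantity that needs no scaling between libraries. Relative to this mean, Upf1 rose from 0.03, 0.08 and 0.13 in control mice to 0.66, 0.70 and 0.83 in moderate and 0.91, 0.91 and 0.95 in severe mice. Upf2 went from 0.60, 0.68 and 0.83 in controls to -0.20, -0.17 and -0.10 in moderate and -0.01, -0.01 and 0.04 in severe mice. Upf2 thus stood above Upf1 in every control and below it in every model mouse. The differences of group means were 0.65 and 0.84 for Upf1 and -0.86 and -0.69 for Upf2, each with p = 0.10 in a two-sided exact permutation test over mice, the smallest that 3 mice against 3 can give, so that no member can pass a threshold of 0.05 here.

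The number of Upf1 counts for each Upf2 count shows the same without a mean over genes, a pair chosen after its values were seen. It was 0.614, 0.640 and 0.701 in controls, 0.535, 0.549 and 0.600 in FLExD/+, 1.74, 1.82 and 1.997 in moderate and 1.82, 1.89 and 1.95 in severe mice. All 6 model mice had more Upf1 than Upf2 counts, and all 6 mice without induction had fewer. Per length, the ratio of TPM was 0.774 to 0.841 in controls, 2.21 to 2.34 in moderate and 2.39 to 2.69 in severe mice.

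Other members shifted less within the set. Smg1 was 0.12 and 0.40 above its control position in moderate and severe mice, Upf3b was -0.35 and -0.30 from it, and Smg5 was at 0.18 in moderate but -0.38 in severe mice. Smg9 was at 0.21 in moderate mice, where its mice were above all controls, and at -0.04 in severe mice, but on TPM these values were 0.04 and -0.20, and the ratio of its counts to TPM, relative to the median gene, also differed between control and moderate mice (means 0.571 and 0.642). Ranges did not overlap with controls for 5 of 9 members in each model, against 60.1% of tested genes set against the same mean in moderate and 74.9% in severe mice, and all of these members had p = 0.10 in the exact test. Upf3a, Smg6 and Smg8 overlapped with controls in both models. Between the models 5 of 9 members did not overlap, against 60% of tested genes, with Upf1 at 0.20, Upf2 at 0.17, Smg1 at 0.28, Smg5 at -0.56 and Smg9 at -0.25 (severe minus moderate).

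**Figure D3:**
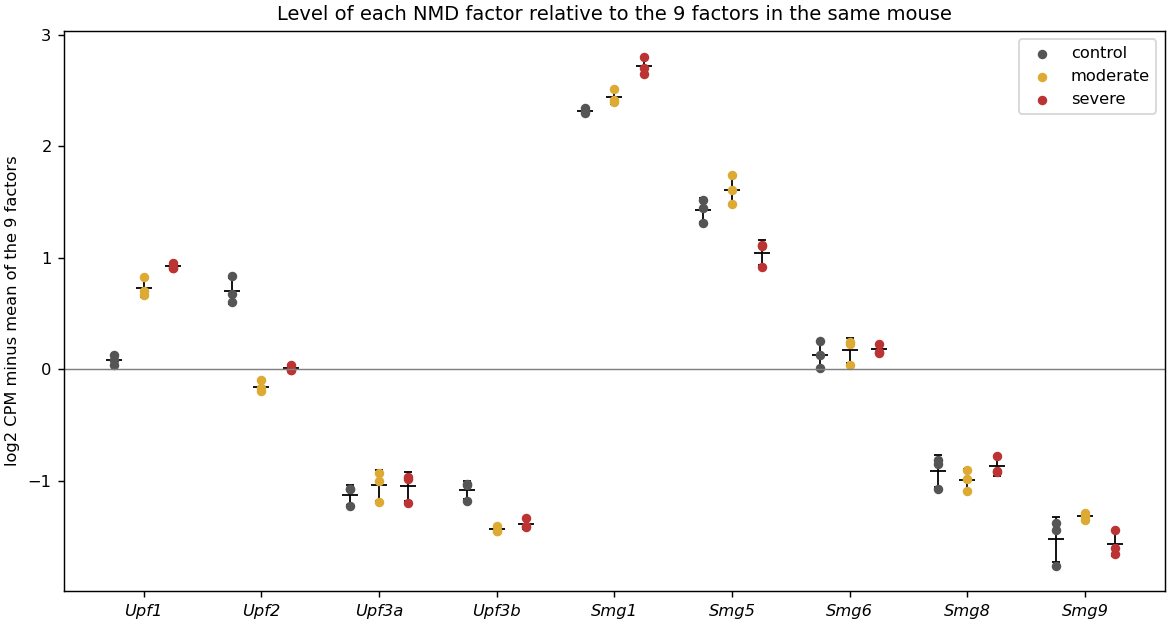
Level of each NMD factor relative to the mean of the 9 factors in the same mouse (y axis, log2 CPM difference) by factor (x axis), with a point for each control (grey), moderate (yellow) and severe (red) mouse and mean and SD as bars. Upf1 sits at 0.03 to 0.13 in controls and 0.91 to 0.95 in severe mice, and Upf2 at 0.60 to 0.83 and -0.01 to 0.04.

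**Figure D4:**
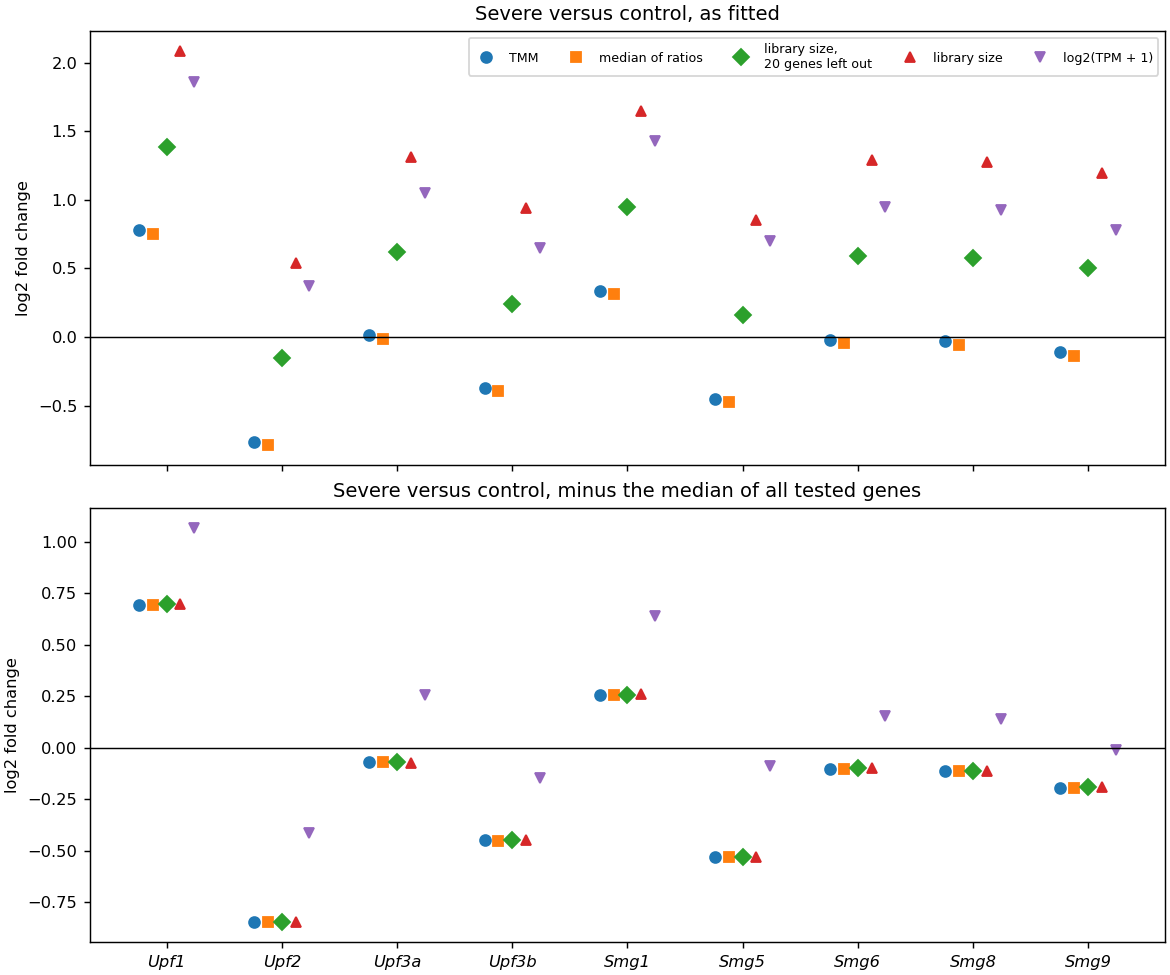
Log2 fold change of each NMD factor in severe mice against control (y axis) under 5 scalings (symbols), as fitted above and after subtracting the median of all tested genes below. As fitted, library size alone places all 9 factors above 0, from 0.54 for Upf2 to 2.08 for Upf1, and after subtraction Upf1 is highest and Upf2 lowest under each scaling.

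The position of most factors against 0 depended on the scaling. Scaling by a factor per library moves all genes by nearly the same amount, so the order of the factors could not change under it. Only the TPM settings could change that order. Relative to the median gene of each scaling, Upf1 in severe mice was between 0.70 and 1.07 higher, Upf2 between -0.85 and -0.41, Upf3b between -0.45 and -0.14, Smg5 between -0.53 and -0.09 and Smg1 between 0.26 and 0.64. In the moderate model these relative values were 0.56 to 0.67 for Upf1 and -0.95 to -0.63 for Upf2.

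The genes whose profiles over the 12 mice were most like those of the 3 factors with the largest change in severe mice are given as a description, since all mice of a group share their condition. For Upf1 they were Naca, encoding a subunit of the nascent polypeptide-associated complex (Pearson r = 0.989 of log2 CPM), Fat1, an atypical cadherin (0.987), and Itga5, the integrin alpha 5 subunit (0.987). For Upf2 they were H1f0, a linker histone (0.988), Ube2h, a ubiquitin-conjugating enzyme (0.987), and Nup153, a nucleoporin (0.984). For Smg5 they were Tubb4b, a beta tubulin (0.956), Ppme1, a protein phosphatase methylesterase (0.935), and Aes, a transcriptional corepressor (0.934). Among the factors themselves, Upf1 and Upf2 had the most negative r, -0.91, and Upf2 and Upf3b the most positive, 0.91 (n = 12 mice).

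The other genes of the pathway were taken from 4 lists. Of 11 further genes linked to NMD and translation termination, all tested, the moderate model had 1 called higher and 1 called lower and the severe model 3 and 1 (all tested genes: 24.4% and 17%, then 32.9% and 27.9%), with median log2 fold changes of -0.16 and -0.17. Gspt2, encoding the release factor eRF3b, had the largest rise but a low level, 0.278 ± 0.121 CPM in controls, 0.551 ± 0.127 in moderate and 1.04 ± 0.133 CPM in severe mice (SD, n = 3). Its log2 fold changes were 0.97 (adjusted p = 0.0390 with edgeR; the call was lost with DESeq2, in a fit of the compared groups alone, and without control mouse 1127 or 1246, FLExD/+ mouse 1358, 1367 or 1378, or moderate mouse 1331) and 1.88 (adjusted p = 0.000167), and whether reads shared with its paralogue Gspt1 affect the value was not tested. Ruvbl2, an ATPase of the R2TP complex that takes part in SMG1 regulation, was called lower in moderate mice (-0.54, edgeR adjusted p = 0.000473; 0.07 with library size alone), and Nbas, which acts in NMD and in Golgi transport, in severe mice (-0.59, adjusted p = 4.7e-05; 0.72 with library size alone).

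Of the 10 genes of the exon junction complex, the protein mark left on spliced mRNA that UPF3 proteins bind, 1 was called lower in moderate mice, and 2 were called higher and 1 lower in severe mice, against 17% of all tested genes lower in the first and 32.9% higher and 27.9% lower in the second comparison. The medians were -0.08 and 0.03. Sap18, a peripheral subunit also found in histone deacetylase complexes, was lower in both models, with log2 fold changes of -0.60 each (edgeR adjusted p = 6.1e-05 and 2.8e-05), turning to 0.01 and 0.71 with library size alone. Magohb, a core subunit nearly identical in sequence to Magoh, was higher in severe mice (0.55, adjusted p = 0.0157), and how reads shared by the pair were divided was not tested.

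Of 30 tested genes of the decapping, deadenylation and exosome machinery, of 31 listed, the moderate model had 1 higher and 4 lower calls and the severe model 6 and 4, where all tested genes gave 24.4% and 17%, then 32.9% and 27.9%. The medians were -0.06 and 0.15. The nucleases of the CCR4-NOT deadenylase complex moved in both directions. Cnot6 and Cnot6l, paralogous nucleases of the CCR4 type, rose in severe mice from 11.2 ± 0.669 to 33.0 ± 8.92 CPM and from 11.1 ± 0.755 to 29.7 ± 6.18 CPM (SD, n = 3; log2 fold changes 1.56 and 1.42, edgeR adjusted p = 3.5e-07 and 2.3e-07), and Cnot6 also in moderate mice (0.74, adjusted p = 0.000871). Cnot7, a nuclease of the CAF1 type, fell from 36.3 ± 2.01 to 23.7 ± 2.24 CPM in moderate and 20.5 ± 0.210 CPM in severe mice (-0.61 and -0.82, adjusted p = 7.6e-05 and 2.0e-06), although with library size alone the severe value was 0.48. Among exosome subunits, Exosc5 fell in both models (-0.65 and -0.63, adjusted p = 4.5e-05 and 2.5e-05; 0.68 in severe mice with library size alone) and Exosc7 in severe mice (-0.69, adjusted p = 2.2e-05; 0.61 with library size alone). Exosc6 was not analysed here.

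Transcripts known as NMD targets were the list with the largest medians. Of 11 tested, of 14 listed, 5 were called higher and 2 lower in moderate and 7 higher and 3 lower in severe mice, where 24.4% and 17% of all tested genes were called higher and lower in the first and 32.9% and 27.9% in the second comparison, with medians of 0.45 and 0.74 against the 0.04 and 0.08 of all genes. The list holds 2 kinds of target, whose medians differed in sign on TMM scaling. In moderate and severe mice they were 0.59 and 0.97 for small nucleolar RNA host genes and -0.28 and -1.19 for stress mRNAs. The sign of the stress medians depended on the scaling. Over the scalings the highest values were 0.33 for Ddit3 in moderate mice, and 0.11 for Atf4 and 0.05 for Ddit3 in severe mice. The 6 tested small nucleolar RNA host genes, whose spliced RNAs hold short reading frames and are known to be cleared by NMD, were all called higher in severe mice and 3 of them in moderate mice. All 6 were above control in both models under every scaling, but the library size and TPM scalings raise most genes and could hardly turn these signs. Relative to the median gene of each scaling, the lowest values were those of Gas5, 0.24 in moderate and 0.55 in severe mice. Among them Gas5 went from 31.0 ± 0.670 to 37.5 ± 2.56 and 50.2 ± 1.07 CPM, Zfas1 from 6.15 ± 0.597 to 10.2 ± 1.11 and 14.4 ± 0.439 CPM, and Snhg15 from 0.734 ± 0.104 to 2.39 ± 0.388 and 3.34 ± 0.414 CPM (SD, n = 3) in control, moderate and severe mice. Zfas1 and Gas5 were chosen for display after their values were seen, and the largest rise was that of Snhg15, with log2 fold changes of 1.69 and 2.18 (edgeR adjusted p = 0.000117 and 3.8e-06). Snhg15 had a low level, and its FLExD/+ mean was 1.29 ± 0.508 CPM, a log2 fold change of 0.81 that was not called. Snhg1, Snhg6 and Snhg8 were not analysed here.

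The 5 stress mRNAs in the list went in both directions. In moderate mice 2 were called higher and 2 lower, and in severe mice 1 higher and 3 lower. Atf3, a transcription factor of the stress response, rose from 2.73 ± 0.676 to 26.4 ± 6.78 CPM in moderate and 22.9 ± 3.27 CPM in severe mice (SD, n = 3; log2 fold changes 3.27 and 3.07, edgeR adjusted p = 1.1e-06 and 6.3e-07). Gadd45a, chosen for display after its values were seen, was called higher in moderate mice (log2 fold change 1.37, edgeR adjusted p = 0.000431). In severe mice it was not called against controls (0.42, adjusted p = 0.132), and it was called lower than in moderate mice (-0.95, adjusted p = 0.00451). Gadd45b, encoding a growth arrest protein, fell by 1.98 and 1.48 on the log2 scale (adjusted p = 7.6e-06 and 3.1e-05), and was lower under every scaling. Atf4, the central transcription factor of the integrated stress response, fell from 115 ± 10.1 to 68.8 ± 2.98 and 50.5 ± 2.16 CPM (-0.75 and -1.19, adjusted p = 5.8e-06 and 2.1e-08), and Ddit3, its target, fell in severe mice (-1.25, adjusted p = 3.6e-05); with library size alone the severe values were 0.11 and 0.05. The part of the cell mixture in the levels of these genes was not tested.

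**Figure D5:**
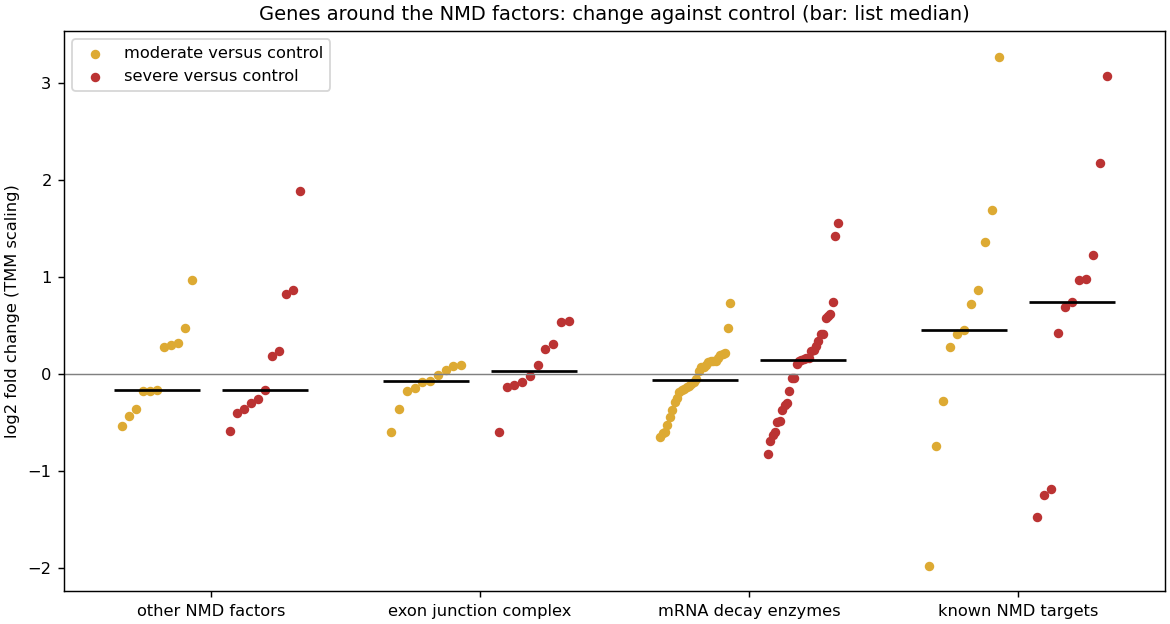
Log2 fold change against control (y axis, TMM scaling) of the genes of 4 lists (x axis) in the moderate (yellow) and severe (red) model, each point a gene in rising order and each bar the median of the list. The medians are near 0 for the first 3 lists and 0.45 and 0.74 for the known NMD targets. That last list joins small nucleolar RNA host genes, with medians of 0.59 and 0.97, and stress mRNAs, with -0.28 and -1.19. The sign of the stress medians depended on the scaling.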

How the data were processed

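The authors trimmed single-end 50-base reads, mapped them with RSEM 1.2.4 (calling Bowtie) to a merged mm10 annotation and used TopHat2 2.0.8b for unaligned reads. They deposited expected counts of 37748 genes without normalization and, in a second table, the authors' TPM; 164142 entries with 0 counts have a TPM above 0. The counting is not stated to use strand.

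Expected counts were rounded and tested with edgeR 4.0.16 (filterByExpr, TMM, robust quasi-likelihood F-test, 1 fit of the 4 groups, R 4.3.3), with adjustment over 16679 genes. Standard errors came from the F statistic. Depth was 23796902 to 29136403 counts per library, and intervals or errors cover these mice only; the labels name 12 separate mice. Calls required an adjusted p below 0.05 and a log2 fold change of 0.5 or more in size. Exact permutation tests used scipy 1.17.1. The test was also run on simulated counts drawn from control and FLExD/+ levels. These lacked the composition shift of the models, so that run gives no information on it.

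The members and lists were chosen with earlier results of these data known. Named in the text are the 9 members, the called gene with the largest rise and fall of each list and model (2 of each for lists over 12 genes), and the 3 genes most like each of 3 members by Pearson r of log2(CPM + 0.5). Gas5, Zfas1, Gadd45a and the ratios of counts were added after their values were seen. List genes were matched by symbol, older symbol or identifier.

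Alternatives were median-of-ratios factors, library size alone, library size without the 20 top control genes, DESeq2 1.42.0, limma 3.58.1 on log2(TPM + 1) and log2(TPM + 0.1), no filter, a minimum of 10 counts in each library, a fit of the compared groups alone, no fold threshold, a log2 fold of 1, an adjusted p under 0.01, log2 TPM for the relative levels, and each mouse left out. Leaving out mice for the relative levels was added after seeing the data. Figures were drawn with matplotlib 3.10.9.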

Additional observations from a re-analysis of the deposited data

Results flagged for a closer look

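Smg5 differed between the models in its change against control. Its log2 fold change was 0.14 for moderate and -0.45 for severe mice, and the difference itself, -0.58 (severe minus moderate), passed edgeR's quasi-likelihood test (adjusted p = 0.000398). The moderate change alone did not pass (adjusted p = 0.293). Relative to the mean of the 9 factors in the same mouse the difference between the models was -0.56, with no overlap of the mice. With library size alone the difference was 0.11.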

How the results depend on the processing

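The signs of most factors depended on the scaling between libraries, since the median of all genes moves with it. The counts of factors higher and lower against control were 1 and 1 in each model. With library size alone they were 6 and 0 in moderate and 9 and 0 in severe mice, with log2(TPM + 1) 3 and 0, and 8 and 0, with log2(TPM + 0.1) 4 and 0, and 8 and 0, and with library size without 20 top genes the severe counts were 6 and 0. Between the models, 0 were higher and 1 lower, against 7 and 0 with library size alone and on both TPM scales, and 1 and 0 without 20 top genes. The shares of all tested genes called under the alternatives of this section are not given here. With library size alone the median gene itself was at 0.65 in moderate and 1.39 in severe mice, and at 0.72 between the models. These counts are therefore not read as particular to the factors. With no fold threshold, 2 were lower in the moderate model, 2 higher and 3 lower in the severe model, and 1 higher between the models. At a log2 fold change of at least 1 all these counts were 0. With each mouse left out the counts against control stayed at 1 and 1. The count lower between the models ranged from 0 (without moderate mouse 1308) to 1, and that of factors apart from control in relative level in the severe model from 5 to 6. For moderate versus control, log2 fold changes turned from negative to positive with library size alone (Upf3b 0.20, Smg6 0.60, Smg8 0.47), with library size without 20 top genes (Smg6 0.30), with log2(TPM + 1) (Upf3b 0.0628, Smg6 0.34) and with log2(TPM + 0.1) (Upf3b 0.077, Smg6 0.41). For severe versus control, log2 fold changes turned from negative to positive with library size alone (Upf2 0.54, Upf3b 0.94, Smg5 0.85, Smg6 1.29, Smg8 1.28, Smg9 1.198), with library size without 20 top genes (Upf3b 0.24, Smg5 0.16, Smg6 0.59, Smg8 0.58, Smg9 0.50), with log2(TPM + 1) (Upf2 0.38, Upf3b 0.65, Smg5 0.70, Smg6 0.95, Smg8 0.93, Smg9 0.78) and with log2(TPM + 0.1) (Upf2 0.43, Upf3b 0.76, Smg5 0.74, Smg6 1.10, Smg8 1.11, Smg9 0.89). For severe versus moderate, log2 fold changes turned from negative to positive with library size alone (Upf3a 0.67, Smg5 0.11, Smg6 0.69, Smg9 0.45), with library size without 20 top genes (Upf3a 0.28, Smg6 0.29), with log2(TPM + 1) (Upf3a 0.60, Smg5 0.17, Smg6 0.60, Smg9 0.40) and with log2(TPM + 0.1) (Upf3a 0.65, Smg5 0.18, Smg6 0.69, Smg9 0.45). The reversals listed had an adjusted p under 0.05 with TMM scaling or with the alternative (edgeR or limma). Others passed in neither fit. Among these, Smg8 in moderate mice turned to 0.17 without 20 top genes and to 0.26 and 0.33 on the TPM scales. Between the models, Smg9 turned to 0.045 without 20 top genes. Median-of-ratios factors, DESeq2, both filters and only the groups compared gave the same counts for the factors. No paired analysis was possible because the groups share no replicate numbers. Smg9 has the lowest counts of the factors, which limits its precision most.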
